A study of Gallus gallus with 36 samples.

Results

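The first 4 hours of the subjective morning were examined in the chicken pineal gland by setting the 3 pineal libraries taken at circadian time 4 (CT4) against the 3 taken at CT0. These are 6 of the 36 RNA-seq libraries of the series, which also holds the pineal gland at CT8, CT12, CT16 and CT20 and the retina at the same 6 times, with 3 libraries for each tissue and time. The CT4 and CT0 groups differ, as far as the labels say, only in the hour of collection. Both came from Hyline chicks, received at an age of 1 day, that had lived under 12 h of light and 12 h of darkness for 9 days and were moved to constant darkness on day 10. CT0 is the start of the subjective day, the hour at which the lights would have come on, and CT4 falls 4 h later, still in darkness. The design text speaks of 3 pineal glands collected in triplicate. This is read here as 3 glands pooled in each library, which the labels do not spell out, and they also do not say how the 3 libraries of a time were collected. The p-values below therefore set each difference against the spread between libraries of the same tissue and time. In the main fit that spread was estimated over all 18 pineal libraries, and for the tissue difference over all 36 libraries.

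The chick pineal gland senses light itself, holds its own circadian clock and releases melatonin at night. In the clock, CLOCK or its paralog NPAS2 pairs with ARNTL (BMAL1) and switches on repressor genes, among them the PER and CRY genes, BHLHE40 and NR1D2, whose proteins later switch the activators off. Melatonin is made from tryptophan in steps catalysed by TPH1, DDC, AANAT and ASMT, and pinopsin (OPNP) is the opsin for which the gland is known.

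The 6 libraries held 8742948, 6583163 and 7449102 counts at CT4 and 7766256, 7870054 and 7329392 counts at CT0. Levels are given in CPM, counts scaled to a common library size, after TMM scaling. They are not divided by transcript length, so they are compared here between samples and not between genes. The pinealocyte markers TPH1, AANAT, ASMT and OPNP were present in every one of the 6 libraries. Other cell types were represented too. The summed level of 15 genes of the choroid plexus and ependyma, dominated by transthyretin (TTR), was 27103 to 46428 CPM at CT4 and 26143 to 34021 CPM at CT0, and that of 15 lymphocyte genes was 807 to 1359 CPM at CT4 and 728 to 1271 CPM at CT0, so both ranges overlapped. The summed level of 7 blood cell genes was 900 to 1196 CPM at CT4 and 1120 to 1806 CPM at CT0, also with overlap. In bulk tissue a smaller number of cells and less RNA per cell cannot be told apart.

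Of 16070 transcripts tested, 264 (1.64%) differed between CT4 and CT0 at an adjusted p below 0.05 in edgeR's quasi-likelihood test with Benjamini-Hochberg adjustment, which is the test behind every adjusted p below. Of these, 113 (0.703% of those tested) were higher at CT4 and 151 (0.94%) were lower. The count depended on the fit: leaving out 1 of the 6 libraries gave 136 to 207 calls, the lowest without CT4 library 2, a fit of only these 6 libraries gave 51 and DESeq2 gave 478. The median size of the called rises was 0.45 on the log2 scale and that of the falls 0.56, against 0.13 for all tested transcripts, and 10 rises and 25 falls reached a factor of 2. All 3 CT4 libraries lay above all 3 CT0 libraries in each of the 113 rises, and all 3 lay below in 150 of the 151 falls, a count that the test itself favours. Over all tested transcripts the groups were apart in 16.7%, upward in 7.86% and downward in 8.86%.

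**Figure D1:**
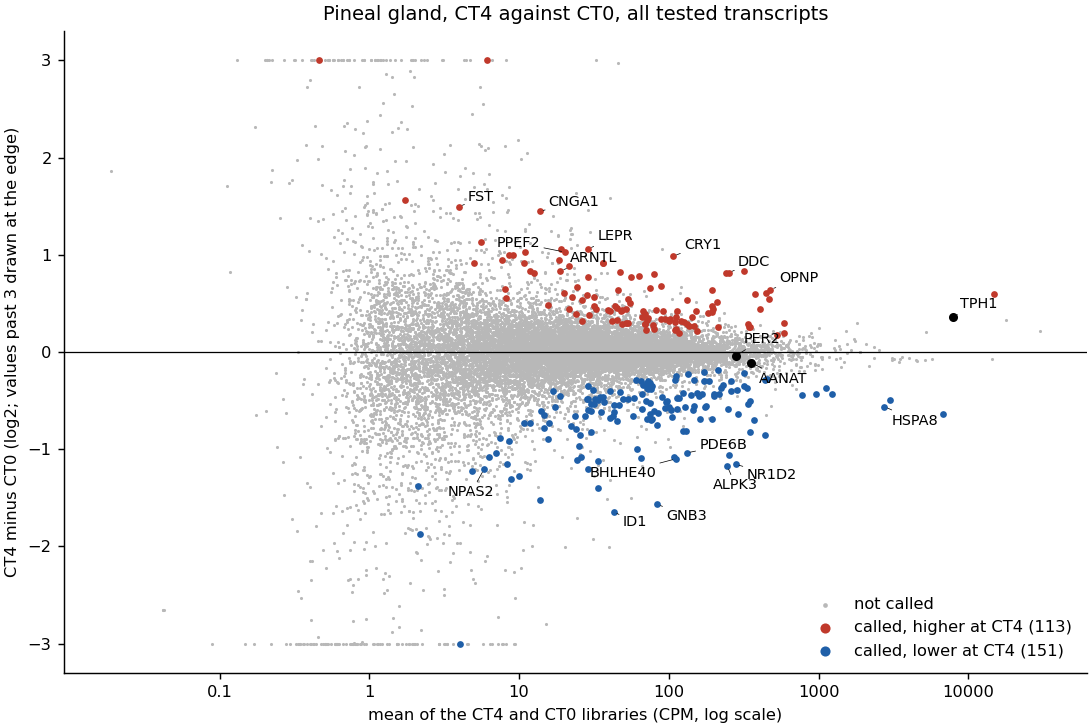
Each point is a tested pineal transcript, placed by its mean level over the CT4 and CT0 libraries (CPM, log scale) and its CT4 minus CT0 difference (log2, values past 3 at the edge). Called rises (113) are red and falls (151) blue, and the black points PER2, AANAT and TPH1 were not called.

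The 12 other pineal libraries show where the called transcripts stood at the remaining hours. These libraries differed in their choroid plexus RNA. TTR averaged 8853 CPM (SD 13316) at CT12 and 18122 CPM (SD 14437) at CT20. At CT8 it averaged 31427 CPM (SD 6441) and at CT16 24898 CPM (SD 1485). The part of tissue make-up in the counts that follow was not tested. Over CT8, CT12, CT16 and CT20 alone, the 113 risers had their highest mean at CT12 in 62 cases (54.9%, against 23.4% of all tested transcripts) and their lowest at CT20 in 84 (74.3%, against 25.5%). The 151 fallers had their highest mean of these 4 times at CT20 in 76 cases (50.3%, against 26.9%) and at CT12 in only 10. CT8 was above CT20 in 93 of the 113 risers (82.3%) and in 48 of the 151 fallers (31.8%), beside 49.6% of all tested transcripts. By the same edgeR test of CT8 minus CT20, 52 of the risers were called higher at CT8, where 3.09% of all transcripts were, and 50 of the fallers were called lower at CT8, where 3.24% were. In the opposite sense, 4 risers were called lower at CT8 than at CT20 and 11 fallers higher. Both tests take their spread from the same fit, so a transcript called in one is more easily called in the other. The median level was 66.6 CPM for the risers and 74.5 CPM for the fallers, against 20.5 CPM for all tested transcripts. The shares over all transcripts are therefore not a matched background for these calls.

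Clock genes were called in both directions. CRY1 and ARNTL rose, and NPAS2, NR1D2, BHLHE40, PER3 and the output factor HLF fell, while PER2, CLOCK and the remaining members were not called. Of 6 tested clock activators 1 was called higher and 1 lower, of 7 repressors 1 higher and 3 lower, and of 5 output factors of the bZIP class 1 lower. The shares over all transcripts were 0.703% called higher and 0.94% called lower. The median log2 difference was 0.06 for the activators, -0.24 for the repressors and 0.04 for the output factors, against 0.00 for all tested transcripts.

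CRY1, a cryptochrome that represses the activator pair, had the smallest p-value of all tested transcripts (chromosome 1, 55631782 to 55667683 in the deposited tables, for which no label names the genome build). Its level was 135, 149 and 141 CPM at CT4, against 69, 74.3 and 71.5 CPM at CT0. The 3 CT4 values were about double the 3 CT0 values and lay close together within each time (log2 difference 0.99 ± 0.06, SE, adjusted p = 5.36e-07). Its mean was 237 CPM at CT8, 270.0 CPM at CT12 and 78.8 CPM at CT20. A second, less counted CRY1 transcript rose as well, by 0.83 ± 0.10 (adjusted p = 4.24e-04).

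ARNTL, the obligate partner in the activator pair, was counted at 22.9, 23.3 and 26.4 CPM at CT4, against 14.2, 16.4 and 9.94 CPM at CT0. The groups did not overlap (log2 difference 0.83 ± 0.13, adjusted p = 0.0026). Its mean was 86.5 CPM at CT8 and 138 CPM at CT12. NPAS2 went the other way over the same hours, at 3.83, 3.62 and 3.11 CPM at CT4, against 7.82, 9.1 and 7.52 CPM at CT0. Its 3 CT4 libraries lay below all CT0 libraries (log2 difference -1.21 ± 0.21, adjusted p = 0.00837). CT4 had the lowest mean of its 6 times and CT12 the highest, 31.9 CPM. That fall belongs to the most counted of 3 NPAS2 transcripts. With the counts summed per gene it was -0.67 and was not called (adjusted p = 0.129). CLOCK averaged 45.5 ± 4.42 CPM at CT4 and 42.1 ± 4.72 CPM at CT0 (SD, n = 3 libraries each, as in all values of this form; adjusted p = 0.64 in edgeR). The second BMAL gene ARNTL2 averaged 74.5 ± 3.96 CPM at CT4 and 83.8 ± 8.33 CPM at CT0 (adjusted p = 0.421). RORA and RORB, nuclear receptors that activate ARNTL, had adjusted p-values of 0.838 and 0.982.

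Among the repressors, NR1D2, the REV-ERB receptor that represses ARNTL, was at 173, 206 and 139 CPM at CT4, against 428, 351 and 375 CPM at CT0. Every CT4 library was below 351 CPM, the lowest CT0 value (log2 difference -1.16 ± 0.21, adjusted p = 0.012), but the call ended without CT4 library 1 or 3 or CT0 library 1 (adjusted p = 0.0512 to 0.0682). BHLHE40, a helix-loop-helix repressor also called DEC1, was at 75.9, 63.6 and 73.5 CPM at CT4, against 146, 144 and 166 CPM at CT0. It fell by 1.10 on the log2 scale (SE 0.10, adjusted p = 3.62e-05). The groups were far apart, and the mean at CT12 was 29.7 CPM. PER3 was at 214, 217 and 167 CPM at CT4, against 303, 276 and 322 CPM at CT0 (log2 difference -0.59 ± 0.14, adjusted p = 0.0438). Its groups were also apart, but its call ended without any 1 of the 6 libraries (adjusted p = 0.0614 to 0.193) and in 7 other settings.

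PER2, a period gene, was at 285, 292 and 256 CPM at CT4, against 295, 271 and 289.8 CPM at CT0. The ranges overlapped and the log2 difference was -0.04 ± 0.13 (adjusted p = 0.951). Its mean at CT8 was 135 CPM. CRY2 was at 305, 298 and 279.6 CPM at CT4, against 358, 330.1 and 358 CPM at CT0, with the groups apart but an adjusted p of 0.0817 (log2 difference -0.24 ± 0.06). It was called in 5 of 17 other settings. CRY4 was at 19.9 ± 1.96 CPM at CT4 and 20.3 ± 0.485 CPM at CT0 (adjusted p = 0.964). HLF, a PAR bZIP activator of clock output genes, was at 83.2, 80.0 and 80.5 CPM at CT4, against 132, 121 and 134 CPM at CT0, and all its CT4 values lay far below the CT0 values (log2 difference -0.66 ± 0.07, adjusted p = 2.11e-04). Of the other output factors, TEF, NFIL3, CEBPB and CEBPG had log2 differences of 0.18, 0.04, 0.15 and -0.01, none of them called.

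**Figure D2:**
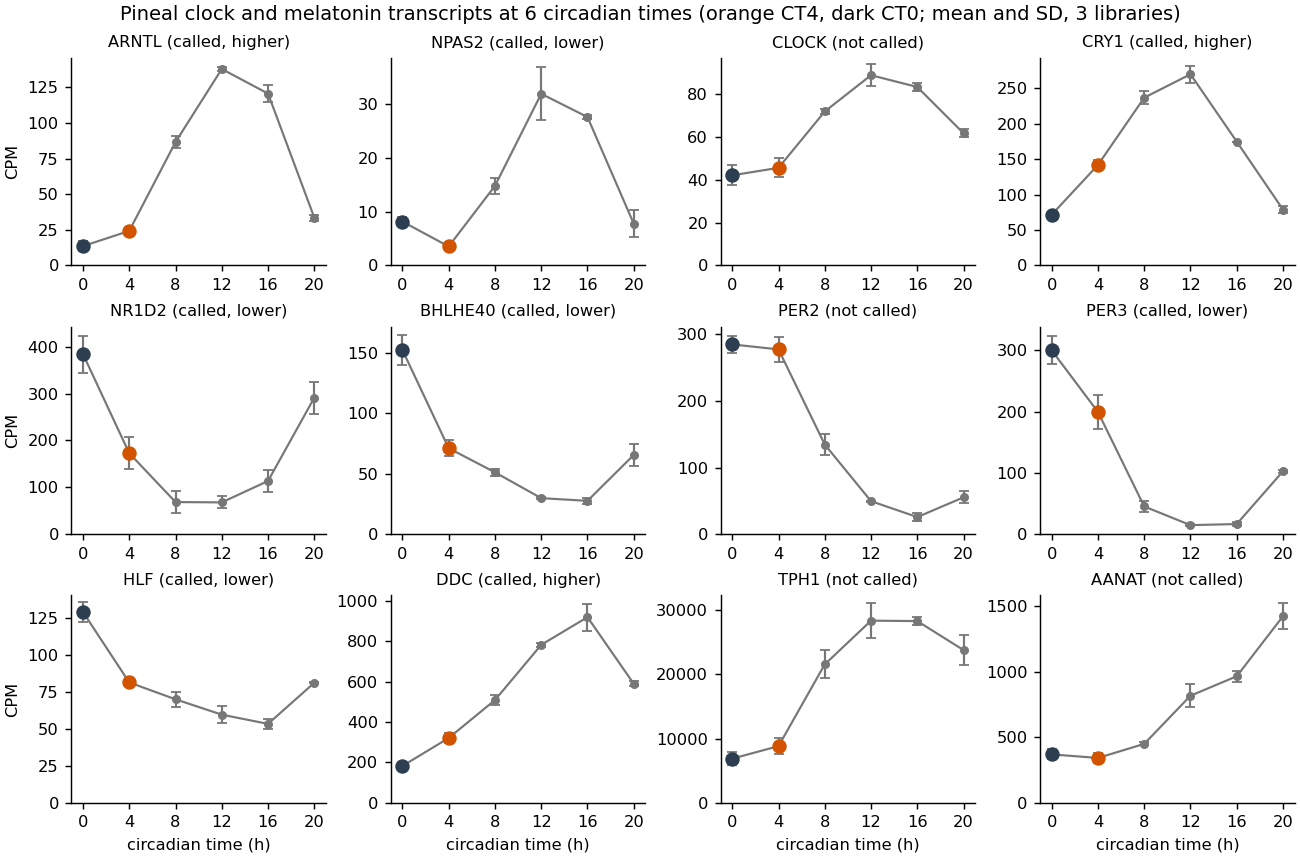
Mean level (CPM, SD as bars, 3 libraries per time) of 12 clock and melatonin transcripts at the 6 circadian times, with CT4 in orange and CT0 in dark blue. The PER2 means of CT4 and CT0 are close and those of the later times lower, and ARNTL, CRY1 and DDC have their highest mean at CT12 or CT16.

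In the melatonin pathway DDC was the only one of 16 tested genes that was called, where 1.64% of all transcripts were. DDC encodes the decarboxylase that turns 5-hydroxytryptophan into serotonin, and its level was 333, 338 and 291 CPM at CT4, against 194, 166 and 187 CPM at CT0. All CT4 libraries were above all CT0 libraries (log2 difference 0.82 ± 0.07, adjusted p = 3.62e-05). Its highest mean of the 6 times was 920.2 CPM at CT16. TPH1, the tryptophan hydroxylase that feeds it, was at 7529, 8859 and 10043 CPM at CT4, against 7789, 5721 and 7096 CPM at CT0. CT4 library 1 lay below CT0 library 1, and the difference of 0.36 ± 0.12 had an adjusted p of 0.22. AANAT, the acetyltransferase whose nightly rise times melatonin, was at 321, 314 and 389 CPM at CT4, against 401, 327 and 378 CPM at CT0, so the ranges overlapped (log2 difference -0.11 ± 0.10, adjusted p = 0.745). ASMT, which makes the last step, had a log2 difference of -0.05 ± 0.11 (adjusted p = 0.919). GCH1, the first enzyme of the tetrahydrobiopterin cofactor, had one of 0.03 ± 0.07 (adjusted p = 0.933). The list as a whole had 12 members above 0 and 4 below, with a median log2 difference of 0.06.

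Light-sensing genes changed in both directions. Pinopsin and melanopsin rose, as did CNGA1 and PPEF2, whereas GNB3 and PDE6B fell. Of 6 tested non-visual opsins 2 were called higher, of 12 rod genes 2 higher and 1 lower, and of 11 cone genes 1 lower, with median log2 differences of 0.31, 0.10 and -0.32. Over all transcripts 0.703% were called higher and 0.94% lower. None of the 12 transcription factors of photoreceptors and the pineal gland was called by edgeR. An unadjusted p under 0.05 was found for 4 of them, against 11.9% of all transcripts. DESeq2 called 1 of the 12, and 478 of all 16070 transcripts.

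GNB3, the beta subunit of cone transducin (chromosome 1, 80401456 to 80410938), was at 45.2, 41 and 40.1 CPM at CT4, against 132, 121 and 120.4 CPM at CT0. All 3 CT4 values were far below the CT0 values, 2.96-fold on the fitted scale (log2 difference -1.57 ± 0.14, adjusted p = 3.62e-05). CT4 had the lowest mean of the 6 times and CT16 the highest, 297 CPM. PDE6B, the beta subunit of the rod phosphodiesterase, was at 99.6, 88.4 and 69.4 CPM at CT4, against 170.0, 173 and 187 CPM at CT0, with no overlap of the groups (log2 difference -1.04 ± 0.14, adjusted p = 0.00148). CNGA1, an alpha subunit of the rod cation channel gated by cyclic GMP, was at 17.3, 25.9 and 17.1 CPM at CT4, against 8.46, 6.57 and 6.99 CPM at CT0. It was 2.73-fold higher at CT4 (log2 difference 1.45 ± 0.16, adjusted p = 3.15e-04), with CT4 library 2 the highest. PPEF2, a photoreceptor phosphatase related to the fly rhodopsin phosphatase rdgC, was at 24.2, 29.5 and 28 CPM at CT4, against 13.2, 11.4 and 15.5 CPM at CT0 (log2 difference 1.03 ± 0.14, adjusted p = 0.00135). Its groups were apart, and its mean at CT12 was 235 CPM.

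Pinopsin (OPNP) was at 589, 579.8 and 572 CPM at CT4, against 374, 320.2 and 422 CPM at CT0. The CT4 libraries had an SD of 8.88 CPM and lay above all CT0 libraries (log2 difference 0.64 ± 0.11, adjusted p = 0.00543). Melanopsin (OPN4) was at 67, 75.2 and 68.5 CPM at CT4, against 40.2, 31.1 and 52 CPM at CT0, again without overlap (log2 difference 0.77 ± 0.13, adjusted p = 0.00808). Of 18 genes of the visual cycle and pigment epithelium, 3 were called lower and none higher (0.94% and 0.703% over all transcripts), and the median was -0.03. RBP4, the plasma carrier of retinol, was at 5785, 4971 and 5149 CPM at CT4, against 8829, 7411 and 8557 CPM at CT0, with the groups apart (log2 difference -0.64 ± 0.13, adjusted p = 0.0173). DHRS3, a retinal reductase, averaged 21.9 ± 4.68 CPM at CT4 and 38.8 ± 5.03 CPM at CT0 (log2 difference -0.83 ± 0.16, adjusted p = 0.0149). BEST1, a chloride channel of the pigment epithelium, averaged 5.2 ± 0.0663 CPM at CT4 and 9.64 ± 0.556 CPM at CT0 (log2 difference -0.89 ± 0.15, adjusted p = 0.00801), and its call ended with both tissues in one fit (adjusted p = 0.192). The RBP4 call ended without CT4 library 2 or 3 or CT0 library 1 or 3 (adjusted p = 0.0673 to 0.0858) and that of DHRS3 without CT4 library 1 or 3 or CT0 library 1 (adjusted p = 0.0724 to 0.0842).

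Among the 12 largest rises outside these pathways was LEPR, the leptin receptor, at 40.3, 40.8 and 36.3 CPM at CT4, against 24.2, 15.7 and 16.4 CPM at CT0. Every CT4 library was above every CT0 library (log2 difference 1.06 ± 0.16, adjusted p = 0.00249). The rule for the largest rises and falls admits only genes whose groups do not overlap, so their separation is no separate result. Its mean at CT12 was 143 CPM. FST, follistatin, a secreted protein that binds activins and bone morphogenetic proteins, was at 5.63, 6.03 and 5.95 CPM at CT4, against 2.05, 2.15 and 2.02 CPM at CT0, with narrow and well separated groups (log2 difference 1.49 ± 0.27, adjusted p = 0.00967). Its call ended with both tissues in one fit (adjusted p = 0.0888). TAL2, a helix-loop-helix factor, was at 48.7, 49.6 and 44.7 CPM at CT4, against 24.7, 20.6 and 30.4 CPM at CT0 (log2 difference 0.92 ± 0.15, adjusted p = 0.00619). CNTNAP5, a neuronal membrane protein of the neurexin superfamily, was at 44.9, 50.8 and 47.5 CPM at CT4, against 26.1, 26.3 and 23.5 CPM at CT0 (log2 difference 0.91 ± 0.12, adjusted p = 8.93e-04). The groups were apart in both. The mean of CNTNAP5 was highest at CT4 of the 6 times, that of TAL2 at CT12 with 88.9 CPM.

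Of the remaining large rises, LHFPL5, a membrane protein of hair cells in mammals, was at 12.1 ± 2.86 CPM at CT4 and 6.08 ± 1.72 CPM at CT0 (adjusted p = 0.0255), and its call ended without CT4 library 1 or 3 or CT0 library 1 or 2 (adjusted p = 0.0668 to 0.123). ZDHHC4, a palmitoyltransferase, was at 10.2 ± 1.48 CPM at CT4 and 5.28 ± 0.815 CPM at CT0 (adjusted p = 0.014) and lost its call without CT4 library 2 or CT0 library 1 (adjusted p = 0.0702 to 0.0711). LDLRAD3, a receptor of the LDL receptor family, averaged 14.7 ± 0.935 CPM at CT4 and 7.22 ± 1.96 CPM at CT0 (adjusted p = 0.0467). This rise was not seen with the counts summed per gene (log2 difference 0.19, adjusted p = 0.61) and ended without CT4 library 1, 2 or 3 or CT0 library 1 or 3 (adjusted p = 0.108 to 0.19). The LDLRAD3 call also ended with both tissues in one fit (adjusted p = 0.515). PATL2, the largest rise by the rule at 1.56 ± 0.37, was near the detection limit at 2.59 ± 0.235 CPM at CT4 and 0.867 ± 0.218 CPM at CT0. Its adjusted p of 0.0462 was above 0.05 without any 1 of the 6 libraries (adjusted p = 0.0851 to 0.171). It was 0.205 per gene and 0.204 with both tissues in one fit.

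**Figure D3:**
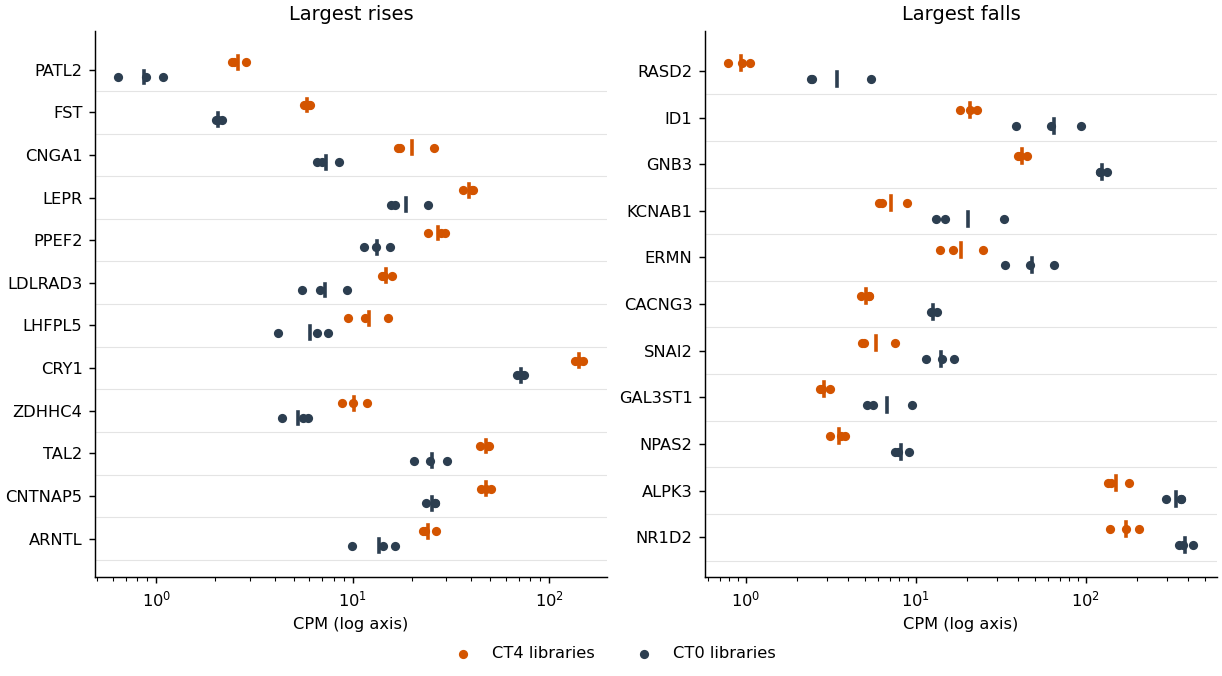
Level in each library (CPM, log axis) of the 12 largest called rises and of 11 of the largest called falls, with CT4 in orange above CT0 in dark blue and bars at the means of 3 libraries. Only genes whose CT4 points lie wholly on one side of the CT0 points were eligible for this selection.

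ID1, an inhibitor of helix-loop-helix factors, showed one of the largest falls, at 23, 18.2 and 20.8 CPM at CT4, against 38.8, 62.3 and 93.4 CPM at CT0. The CT4 libraries were tight and below all CT0 libraries, which spread more widely among themselves (log2 difference -1.64 ± 0.28, adjusted p = 0.00619). ALPK3, an alpha-kinase known from heart muscle, was at 134, 178 and 139.8 CPM at CT4, against 360.2, 294 and 364 CPM at CT0, with no overlap (log2 difference -1.17 ± 0.12, adjusted p = 2.11e-04). CACNG3, an auxiliary subunit of AMPA receptors, was at 4.73, 5.27 and 5.28 CPM at CT4, against 12.2, 13.3 and 12.5 CPM at CT0, also with none (log2 difference -1.31 ± 0.19, adjusted p = 0.0019). SNAI2, a zinc finger repressor known from the neural crest, was at 4.84, 4.97 and 7.58 CPM at CT4, against 11.4, 14.2 and 16.7 CPM at CT0 (log2 difference -1.28 ± 0.24, adjusted p = 0.0134). Its groups were apart, but the call ended without CT4 library 1 or 2 or CT0 library 3 (adjusted p = 0.063 to 0.0749) and with both tissues in one fit (adjusted p = 0.0845).

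ERMN, a protein of the myelin sheath, was at 13.9, 16.4 and 24.8 CPM at CT4, against 46.8, 33.6 and 64.9 CPM at CT0 (log2 difference -1.40 ± 0.26, adjusted p = 0.012). GAL3ST1, the sulfotransferase that makes the myelin lipid sulfatide, averaged 2.88 ± 0.208 CPM at CT4 and 6.74 ± 2.43 CPM at CT0 (log2 difference -1.22 ± 0.27, adjusted p = 0.0332). KCNAB1, a beta subunit of voltage-gated potassium channels, was at 6.31, 8.89 and 6.09 CPM at CT4, against 13.2, 33 and 14.8 CPM at CT0 (log2 difference -1.52 ± 0.30, adjusted p = 0.0164), with CT0 library 2 far above the rest. RASD2, a small GTPase of striatal neurons, was at 0.789, 1.05 and 0.947 CPM at CT4, against 2.44, 5.43 and 2.42 CPM at CT0 (log2 difference -1.87 ± 0.44, adjusted p = 0.0466). RASD2 was at a few CPM or less, and the groups were apart in all 4 genes. All 4 calls depended on single libraries. That of ERMN ended without CT4 library 1 or 2 or CT0 library 3 (adjusted p = 0.0561 to 0.0665). That of GAL3ST1 ended without CT4 library 1, 2 or 3 or CT0 library 3 (adjusted p = 0.0928 to 0.147), and that of KCNAB1 without CT4 library 1 or 3 (adjusted p = 0.0842 to 0.0852). That of RASD2 ended without any 1 of the 6 libraries (adjusted p = 0.0599 to 0.201).

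Marker lists of 2 cell classes are given beside these falls. The myelin protein MBP averaged 20.2 ± 5.41 CPM at CT4 and 57.4 ± 32.8 CPM at CT0 (log2 difference -1.52 ± 1.01, adjusted p = 0.626). Of 15 glia and myelin genes 11 were below 0, with a median of -0.19 and none called. Their summed level was 2004 to 2156 CPM at CT4 and 2074 to 2262 CPM at CT0, so the ranges overlapped. Of 17 tested genes of retinal neurons, 16 were below 0, with a median of -0.18, and 1 was called lower (0.94% over all transcripts). Their summed level was 543 to 632 CPM at CT4 against 669 to 712 CPM at CT0, without overlap. GAD67, which makes GABA, averaged 3.76 ± 0.364 CPM at CT4 and 10.4 ± 10.1 CPM at CT0, and TFAP2A, ONECUT1, LHX1 and TH were each below 1 CPM at both times. The part of such cells in the falls of ERMN, GAL3ST1, KCNAB1 and RASD2 was not tested.

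Heat shock genes encode chaperones that help proteins fold. Their list, mainly cytosolic but also holding the mitochondrial HSPD1 and HSPE1, had 6 falls and no rise. Of 28 tested members 6 were called lower and none higher, against 0.94% called lower over all transcripts, and 26 of 28 were below 0, with a median log2 difference of -0.17. Their summed level was 8715 to 9409.9 CPM at CT4 and 10966 to 12326 CPM at CT0. HSPA8, the constitutive HSP70, was at 2159.5, 2300.3 and 2183 CPM at CT4, against 3489, 2935 and 3375 CPM at CT0 (log2 difference -0.56 ± 0.07, adjusted p = 0.00109). HSP90AA1, the inducible cytosolic HSP90, was at 2567, 2632 and 2232 CPM at CT4, against 3570.0, 3264 and 3618 CPM at CT0 (log2 difference -0.49 ± 0.07, adjusted p = 0.00175). HSPH1, the HSP110 exchange factor, was at 288, 295 and 261 CPM at CT4, against 469, 425 and 479.6 CPM at CT0 (log2 difference -0.70 ± 0.07, adjusted p = 1.51e-04). In all 3 genes no CT4 library reached the lowest CT0 library.

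The other called members, named after their values were seen, were the co-chaperones DNAJA1, DNAJA4 and BAG3, at -0.50, -0.43 and -0.55 on the log2 scale. A transcript with the symbol HSP70, outside the list and also named afterwards, was at 325, 326 and 283 CPM at CT4, against 537, 513 and 638 CPM at CT0 (log2 difference -0.85 ± 0.12, adjusted p = 0.00206). The means of HSPA8, HSP90AA1 and HSPH1 at CT8 were 2311, 2515 and 247 CPM. Of the same list, the chaperonin subunit CCT2 and the mitochondrial chaperones HSPD1 and HSPE1 had log2 differences of -0.03, -0.08 and 0.03, not called.

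In the endoplasmic reticulum the picture was mixed. Of 35 tested genes of the unfolded protein response, 1 was called higher and 1 lower, against 0.703% and 0.94% over all transcripts, with a median of 0.01. HSPA5, the chaperone BiP, was at 846, 809 and 795 CPM at CT4, against 1100.1, 1164 and 1039 CPM at CT0 (log2 difference -0.43 ± 0.07, adjusted p = 0.00801), below all CT0 libraries. PDIA3, a protein disulfide isomerase, was at 633, 623 and 621 CPM at CT4, against 553, 545 and 544 CPM at CT0 (log2 difference 0.19 ± 0.04, adjusted p = 0.0439), a small but very even rise whose call ended without any 1 of the 6 libraries (adjusted p = 0.105 to 0.146). Of 15 immediate early genes, the first responders to stimulation, 1 was called lower (0.94% over all transcripts), 13 were below 0 and the median was -0.20. The called member was NR4A3, an orphan nuclear receptor, at 5.29, 4.52 and 5.55 CPM at CT4, against 12.2, 10.4 and 11.7 CPM at CT0 (log2 difference -1.15 ± 0.22, adjusted p = 0.0135). Its groups were apart, and its call ended without CT4 library 1 or 2 or CT0 library 1 (adjusted p = 0.0534 to 0.0722). EGR1 was not called, at 82.5 ± 8.07 CPM at CT4 and 94.6 ± 7.16 CPM at CT0, and neither was JUN, at 42.1 ± 5.73 CPM at CT4 and 42.7 ± 11.4 CPM at CT0.

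Genes of lipid metabolism were called in both directions. Of 34 tested genes of fatty acid and lipid handling, 3 were called higher and 3 lower, against 0.703% and 0.94% over all transcripts, and the median was 0.01. PDK4, the kinase that shuts pyruvate out of the citric acid cycle, was at 15.4, 17.2 and 18.4 CPM at CT4, against 33.5, 32.4 and 33.9 CPM at CT0, CT4 being the lowest of its 6 times (log2 difference -0.97 ± 0.12, adjusted p = 5.57e-04). CPT1A, which brings fatty acids into mitochondria, and ANGPTL4, an inhibitor of lipoprotein lipase, fell by 0.45 and 0.85. On the synthetic side, ELOVL2, an elongase of polyunsaturated fatty acids, was at 35.6, 37.5 and 29.5 CPM at CT4, against 21.9, 23.4 and 23.1 CPM at CT0 (log2 difference 0.58 ± 0.10, adjusted p = 0.00607). ACSL3, an acyl-CoA synthetase, was at 56.7, 63 and 56.8 CPM at CT4, against 46.7, 48.9 and 47.8 CPM at CT0 (log2 difference 0.30 ± 0.06, adjusted p = 0.0129). The groups were apart in both, and the ACSL3 call ended without CT4 library 2 or CT0 library 1 (adjusted p = 0.0509 to 0.0637). DGAT2, which makes triglyceride, rose by 0.43. CPT1A, ANGPTL4 and DGAT2 are named after their values were seen.

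Of 23 glycolysis genes 1 was called lower and none higher, against 0.94% and 0.703% over all transcripts. In this list 13 were above 0 and 10 below, with a median of 0.004. The called gene was the glucose transporter SLC2A1, at 165, 172 and 172 CPM at CT4, against 243, 238 and 206 CPM at CT0 (log2 difference -0.43 ± 0.08, adjusted p = 0.00931). Its groups were apart, and the call ended without CT4 library 1 (adjusted p = 0.0501). Of 17 genes of steroid and stress hormone response 3 were called lower, against 0.94% over all transcripts, and 0 higher, and the median was -0.29. PDK4 is one of them, being on both lists. KLF15, a glucocorticoid-induced zinc finger factor, was at 13.7, 13.4 and 14.8 CPM at CT4, against 19.5, 21.5 and 21.2 CPM at CT0 (log2 difference -0.57 ± 0.11, adjusted p = 0.0141). The forkhead factor FOXO3 was at 25, 26.5 and 26.3 CPM at CT4, against 34, 35.8 and 43.3 CPM at CT0 (log2 difference -0.54 ± 0.11, adjusted p = 0.0241). Neither gene's groups overlapped. The KLF15 call ended without CT4 library 1 or 2 or CT0 library 2 or 3 (adjusted p = 0.052 to 0.0686) and the FOXO3 call without CT4 library 1, 2 or 3 or CT0 library 3 (adjusted p = 0.0735 to 0.112).

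Of 42 tested ion channels and transporters 1 was called higher and 2 lower, against 0.703% and 0.94% over all transcripts, with a median of -0.09. The calcium pump of the endoplasmic reticulum ATP2A2 was at 1104, 1059 and 955 CPM at CT4, against 1479, 1307 and 1434 CPM at CT0 (log2 difference -0.44 ± 0.07, adjusted p = 0.00619). All its CT4 libraries were lower. CACNA1D, an L-type calcium channel, was at 217, 229.7 and 225 CPM at CT4, against 179.6, 148 and 156 CPM at CT0, all CT4 libraries being higher (log2 difference 0.47 ± 0.10, adjusted p = 0.0216). The CACNA1D call ended without CT4 library 1, 2 or 3 or CT0 library 2 or 3 (adjusted p = 0.0564 to 0.0896).

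Single calls fell in further lists, where 1.64% of all transcripts were called. SLC1A4, a transporter of neutral amino acids and the called one among 20 amino acid response genes, was at 91.4, 97.8 and 92.2 CPM at CT4, against 65.9, 73.7 and 68.8 CPM at CT0 (log2 difference 0.43 ± 0.06, adjusted p = 0.00206). Among 30 genes of autophagy and lysosome, LAMP1, a lysosomal membrane protein, was at 378 ± 13.2 CPM at CT4 and 317 ± 12.2 CPM at CT0 (log2 difference 0.25 ± 0.04, adjusted p = 0.00388). NPC1, a lysosomal cholesterol exporter, averaged 64.6 ± 3.33 CPM at CT4 and 79.7 ± 4.28 CPM at CT0 (log2 difference -0.30 ± 0.07, adjusted p = 0.0333). The groups were apart in all 3, and the NPC1 call ended without any 1 of the 6 libraries (adjusted p = 0.0501 to 0.156). The pericyte receptor PDGFRB, of 17 genes of endothelium and pericytes, averaged 63.6 ± 2.24 CPM at CT4 and 79.5 ± 6.38 CPM at CT0 (log2 difference -0.32 ± 0.07, adjusted p = 0.0216), and its call ended without CT4 library 1, 2 or 3 or CT0 library 2 or 3 (adjusted p = 0.0537 to 0.119) and with both tissues in one fit (adjusted p = 0.161). The collagen COL6A3, of 26 genes of fibroblasts and matrix, averaged 185 ± 28.6 CPM at CT4 and 249 ± 6.21 CPM at CT0 (log2 difference -0.43 ± 0.10, adjusted p = 0.0418), and its call ended without any 1 of the 6 libraries (adjusted p = 0.0532 to 0.131). The COL6A3 call also ended with both tissues in one fit (adjusted p = 0.148) and in the 3 limma fits (adjusted p = 0.0648 to 0.0737). ACTC1, the cardiac actin, was at 307, 290.0 and 326 CPM at CT4, against 176, 124 and 225 CPM at CT0 (log2 difference 0.82 ± 0.15, adjusted p = 0.0121). Its groups were apart, and its call ended without CT4 library 3 (adjusted p = 0.0558). Of 13 tested genes of lens and skeletal muscle, ACTC1 among them, 9 were above 0 and 4 below, with a median of 0.08. Groups were apart in 2 of these genes, both upward. Without ACTC1, which supplies most of its sum, the list summed to 174 to 199.6 CPM at CT4 and 114 to 178 CPM at CT0, so the ranges overlapped. The part of such cells in this rise was not tested. The skeletal muscle marker ACTA1 averaged 9.77 ± 0.777 CPM at CT4 and 10.2 ± 1.77 CPM at CT0, and TNNT3 averaged 3.61 ± 1.28 CPM at CT4 and 3.4 ± 1.16 CPM at CT0. The lens markers CRYBA4 and CRYBB1 were each below 1 CPM.

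In edgeR's test 1.64% of all transcripts were called, a share at which a short list holds few calls or none. Several functional groups had no called member at all. These were 13 clock kinases and ubiquitin ligases, 27 genes of adrenergic and cyclic AMP signalling, 20 of cholesterol synthesis, 50 of the respiratory chain, 31 of the proteasome, 60 cytosolic ribosomal proteins, 30 of ribosome biogenesis and 34 splicing factors, and also 33 of cell division, 20 of DNA repair, 24 of the oxidative stress response, 31 of secretion and 21 of synapses. The same held for 14 genes of choroid plexus and ependyma, 9 of macrophages and 5 of blood cells, and for 1 cold-inducible gene. Over these lists with those of lymphocytes, of glia and of the photoreceptor and pineal transcription factors, 50 of 465 members (10.8%, a gene on several lists counting in each) had an unadjusted p under 0.05, against 11.9% of all transcripts. DESeq2 called 10 of them, and 478 of all 16070 transcripts. With limma on log2(FPKM + 0.1) 1 of them was called, and 272 of all 18376 transcripts in that fit. Cholesterol synthesis leaned upward, with 15 of 20 members above 0 and a median of 0.13, and ribosomal proteins by less, with 52 of 60 above 0 and a median of 0.06, where the median of all tested transcripts was 0.00. Lymphocyte genes were above 0 in 14 of 15 with a median of 0.32, but no member had its groups apart and none was called. Blood cell genes leaned downward, with 4 of 5 below 0 and a median of -0.65, and 1 of them had its groups apart.

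**Figure D4:**
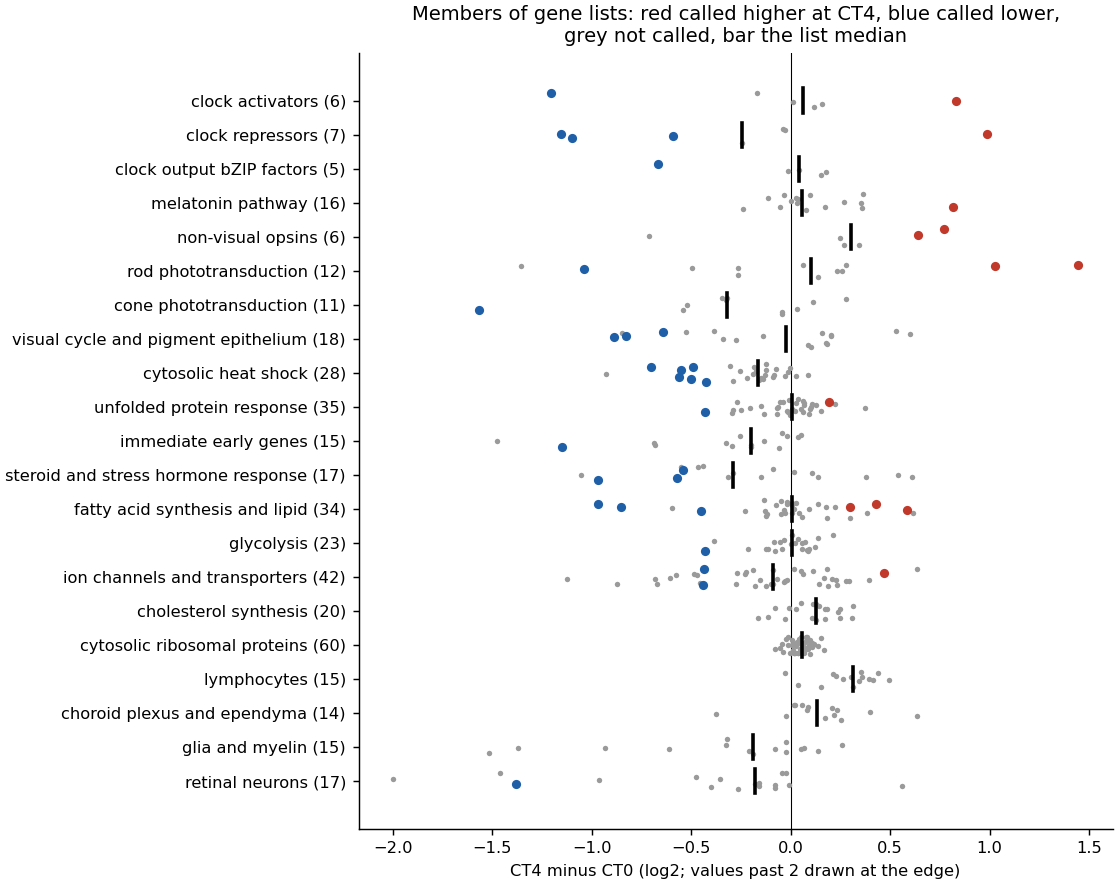
CT4 minus CT0 differences (log2) of the tested members of 21 gene lists, 1 point per gene, red where called higher at CT4, blue where called lower and grey where not called, with the list median as a bar. The heat shock list is shifted to the left with 6 called falls, and the ribosomal proteins lie close to 0.

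The same 4 h were also sampled in the retina, which has its own clock. In a fit of all 36 libraries the CT4 minus CT0 difference itself differed between the pineal gland and the retina in 58 of 16831 transcripts (0.345%), with 17 differences positive and 41 negative, and the retina alone had 40 called transcripts (0.238%). Of the pineal calls, 14 rises and 36 falls were among those that differed. This overlap is partly built in, because both tests use the same pineal CT4 and CT0 libraries. GNB3 had the smallest p-value, with a log2 difference of -1.56 ± 0.11 in the pineal gland and 0.14 ± 0.10 in the retina (difference -1.70 ± 0.14, adjusted p = 8.60e-08). DDC rose in the pineal gland and was -0.39 ± 0.13 in the retina, where it was not called (adjusted p = 0.422). Its difference between the tissues was 1.21 ± 0.17 (adjusted p = 3.27e-04).

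Of the clock genes, CRY1 rose in the retina too, by 0.35 ± 0.06 (adjusted p = 0.00381), and by more in the pineal gland (difference 0.64 ± 0.09, adjusted p = 2.60e-04). BHLHE40, HLF and NPAS2 differed as well, by -0.79 ± 0.14, -0.47 ± 0.09 and -1.63 ± 0.26 (adjusted p = 0.00593, 0.0159 and 0.00222). ARNTL had nearly the same value in both, 0.84 ± 0.12 in the pineal gland and 0.85 ± 0.10 in the retina, and its difference of 0.00 ± 0.19 was not called, which does not show that the tissues act alike. PPEF2 likewise gave 1.04 ± 0.16 and 1.03 ± 0.15, and PER3 -0.58 ± 0.12 and -0.73 ± 0.12, with differences of 0.01 ± 0.21 and 0.15 ± 0.18.

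CYP1B1, a cytochrome P450, fell in the pineal gland, at 61.4, 61.5 and 62.5 CPM at CT4, against 98.3, 98.7 and 115 CPM at CT0 (log2 difference -0.75 ± 0.09, adjusted p = 4.24e-04), and was at 25.5 CPM at CT4 and 21.9 CPM at CT0 in the retina, a difference of -0.96 ± 0.12 between the tissues (adjusted p = 1.44e-04). NDRG1 and NR2E3 were called in the retina and not in the pineal gland. NDRG1, a stress-regulated gene, was at 355 ± 26 CPM at CT4 and 334 ± 32.8 CPM at CT0 in the pineal gland and at 541 CPM at CT4 and 297 CPM at CT0 in the retina (difference -0.77 ± 0.10, adjusted p = 1.24e-04). NR2E3, a nuclear receptor of photoreceptors, averaged 242 ± 14.5 CPM at CT4 and 192 ± 20.5 CPM at CT0 in the pineal gland, where its adjusted p was 0.0902, and 26.9 CPM at CT4 and 73.7 CPM at CT0 in the retina (difference 1.79 ± 0.26, adjusted p = 4.81e-04). The retinal libraries were at 21.6, 31.7 and 27.5 CPM at CT4, against 52.8, 57.6 and 110.8 CPM at CT0, with CT0 library 3 far above the rest.

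**Figure D5:**
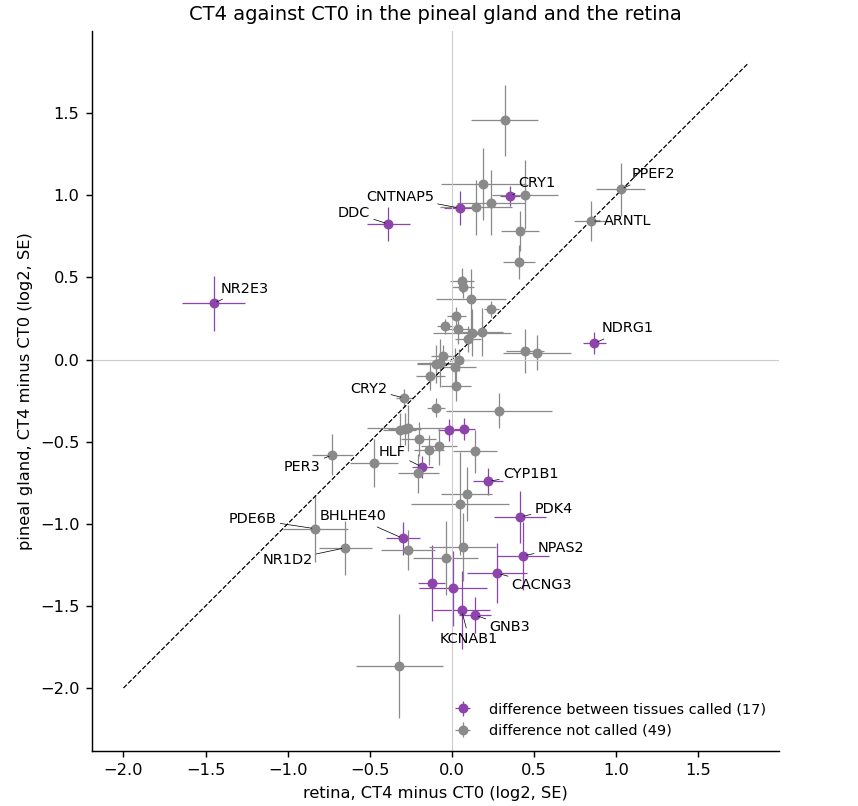
CT4 minus CT0 differences (log2, bars SE) of 66 named genes in the pineal gland (vertical) and the retina (horizontal) from one fit, with the 17 whose difference between the tissues was called in purple and the line of equal change dashed. ARNTL and PPEF2 lie on the line, while GNB3, DDC and NR2E3 are far from it.

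Of the 56 called genes that the naming rule gave, 30 stayed called when any 1 of the 6 libraries was left out. When the fit held only the 6 CT4 and CT0 libraries, 13 stayed called, namely CRY1, CNTNAP5, GNB3, CACNG3, ALPK3, NR1D2, BHLHE40, HLF, DDC, PDE6B, HSPH1, PDK4 and CYP1B1, while the other 43 had adjusted p-values of 0.0508 to 0.26.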

How the data were processed

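Libraries followed standard Illumina protocols after TRIzol and RNeasy purification, per the labels' protocols. Trimmomatic, TopHat and Cufflinks appear in the submitters' processing notes, with neither role nor version, and no label or header names a genome build. The authors deposited estimated counts for 23352 Ensembl transcripts, which need not be whole (68.1% are), and FPKM values for the same transcripts, used here only as an alternative. Such counts are shared out among a gene's transcripts, so values of single transcripts and of close paralogs are uncertain, and neither labels nor headers mention strand. Names were taken from the deposited tables and, for 36 renamed and 38 otherwise unnamed transcripts, from a RefSeq gene table (3946 of 4207 RefSeq identifiers matched).

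Estimated counts were rounded and analysed with edgeR 4.0.16 in R 4.3.3: TMM scaling, filterByExpr by time, a mean per time over the 18 pineal libraries and the quasi-likelihood test of CT4 minus CT0, adjusted by Benjamini-Hochberg with a threshold of 0.05. SE was computed as the absolute log2 difference divided by the root of F. The tissue difference was tested in one fit of all 36 libraries. Alternatives used DESeq2 1.42.0, and limma 3.58.1 on log2(FPKM + 0.1) and log2(FPKM + 1). The scripts were tested on simulated data. Figures were drawn with matplotlib 3.10.9. The labels do not say whether libraries with the same replicate number were handled together, though the library numbers run replicate by replicate. Deviations of CT4 and CT0 libraries with the same replicate number correlated at 0.00167, -0.0361 and -0.0417. These values show no pairing but cannot exclude shared handling. Named genes are the 12 largest rises and falls among called transcripts with at least 1 CPM whose groups do not overlap (most counted transcript per symbol), the clock lists and TPH1, DDC, AANAT, ASMT and GCH1, up to 3 called members of every other list by p, and the 6 smallest p of the tissue difference. A few genes that the rule gave are not reported here. The comparison, the 42 gene lists and the naming rule were chosen with earlier results of these data known, so they are a description and no independent support.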

Additional observations from a re-analysis of the deposited data

Results flagged for a closer look

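The CT4 minus CT0 difference of 58 transcripts differed between the pineal gland and the retina by the test of that difference in the fit of all 36 libraries. Among the named genes, the pineal minus retina value was positive for CRY1 (0.64), CNTNAP5 (0.87), DDC (1.21) and NR2E3 (1.79) on the log2 scale. It was negative for GNB3 (-1.70), NPAS2 (-1.63), KCNAB1 (-1.58), CACNG3 (-1.58), ERMN (-1.40), PDK4 (-1.37) and CYP1B1 (-0.96). Smaller negative values were found for BHLHE40 (-0.79), NDRG1 (-0.77), SLC2A1 (-0.50), HLF (-0.47) and ATP2A2 (-0.41).

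NR2E3 and NDRG1 changed in the retina, by -1.45 ± 0.19 and 0.87 ± 0.07, and were not called in the pineal gland. PDK4 had opposite signs in the 2 tissues, -0.96 ± 0.16 in the pineal gland and 0.42 ± 0.16 in the retina; the retinal value was not called (adjusted p = 0.518).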

How the results depend on the processing

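Between 224 and 272 transcripts were called with size factors in place of TMM, without the filter on low counts, with the replicate block and in the 3 limma fits on FPKM. DESeq2 called 478 (203 higher, 275 lower), of which 261 were among the 264, and a fit of only the 6 CT4 and CT0 libraries called 51 (16 higher, 35 lower), of which 47 were. Leaving out each of the 6 libraries in turn, which also lowers the number of samples, gave 136 (without CT4 library 2) to 207 calls (without CT0 library 2), with 51 to 78 higher and 74 to 137 lower. Counts summed per gene gave 363 calls. The following 2 settings were chosen after seeing the data: without the 3 pineal libraries low in TTR, none of which is a CT4 or CT0 library, 236 transcripts were called, and with both tissues in one fit 367. The replicate block called 243, of which 223 were shared, and ended the calls of 8 of the 56 named genes (DESeq2 0, no filter 8, per gene 3, limma 4 to 6). Whether the replicate numbers mark shared handling is not stated in the labels. The tissue difference gave 58 calls in the main fit, 66 with size factors, 48 without the filter, 66 with the replicate block and 79 without the libraries low in TTR; leaving out 1 library gave 40 to 63, with 10 to 21 higher and 25 to 46 lower. No called named gene changed sign. The 12 named genes called in every setting were CRY1, CNTNAP5, GNB3, CACNG3, ALPK3, BHLHE40, HLF, DDC, PDE6B, HSPH1, PDK4 and CYP1B1. Of the 17 uncalled named genes CRY2 and NR2E3 were called in some settings. The median log2 difference of all transcripts was 1.3e-04 in the main fit and 0.0056 with size factors.

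At 3 libraries per time, 1907 transcripts had an unadjusted p under 0.05 and 264 were called, and the spread between libraries (biological coefficient of variation 0.221) sets which of the small differences can be seen. Genes near 1 CPM, such as PATL2 and RASD2, rest on few reads.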

Other observations

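Several called genes belong to signalling by bone morphogenetic proteins (BMPs), secreted growth factors whose binding is blocked by antagonists such as FST and NBL1. A list of 50 such genes, compiled after these values were seen and therefore described without a test, had 36 tested members, of which 2 were called higher and 4 lower (0.703% and 0.94% over all transcripts), with 24 below 0 and a median log2 difference of -0.15. The ligands BMP2, BMP6 and BMP7 fell, at 17.8, 13.7 and 14.6 CPM at CT4, against 37.9, 27.6 and 34.1 CPM at CT0 for BMP2 (log2 difference -1.11 ± 0.24, adjusted p = 0.0308), and by 0.76 and 0.44 for BMP6 and BMP7. The target gene ID1 was called lower, and the antagonists FST and NBL1 were called higher, NBL1 at 537, 558 and 561 CPM at CT4, against 389, 352 and 395 CPM at CT0 (log2 difference 0.54 ± 0.08, adjusted p = 0.0016). The groups were apart in these 6 genes. The BMP2 call ended without CT4 library 1, 2 or 3 or CT0 library 1 or 3 (adjusted p = 0.0622 to 0.126), that of BMP6 without CT4 library 3 or CT0 library 1 (adjusted p = 0.06 to 0.0704) and that of BMP7 without CT4 library 1 or 3 or CT0 library 1 or 3 (adjusted p = 0.0811 to 0.158). BMP4, BMP5, the receptors BMPR1A and BMPR1B and the mediators SMAD1 and SMAD5 were not called, at -0.43, 0.06, -0.15, 0.39, 0.01 and -0.10. Other antagonists and related genes had values below 0 without a call, NOG at -1.52, FSTL3 at -1.14, FSTL4 at -1.10 and CHRDL1 at -0.19. Also without a call, SOSTDC1, CHRDL2 and BMPER were above 0, at 0.52, 0.72 and 0.30. FSTL1 and TWSG1 were at -0.03 and 0.00. The levels of NOG, FSTL3 and CHRDL2 were a few CPM or less. The target genes ID2, ID4, SMAD6 and SMAD7 were not called either, at -0.61, -0.04, -0.28 and -0.19. MSX2 and BAMBI, also on the list, were above 0 without a call, at 0.66 and 0.02. For MSX2, CT4 library 3 was at 28.0 CPM and CT4 libraries 1 and 2 at 7.21 and 6.03 CPM. With both tissues in one fit the calls of FST, BMP6 and BMP7 ended (adjusted p = 0.0888, 0.0596 and 0.17). In the fit of only the 6 CT4 and CT0 libraries NBL1 stayed called. There BMP2, BMP6, BMP7, FST and ID1 were not (adjusted p = 0.0573, 0.0715, 0.226, 0.0508 and 0.114).

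Other called genes were singled out after their values were seen. DIO2, the deiodinase that activates thyroid hormone, was at 153, 166 and 168 CPM at CT4, against 408, 313 and 296 CPM at CT0 (log2 difference -1.06 ± 0.12, adjusted p = 4.24e-04). It was the one called gene of 18 tested in a list on thyroid hormone compiled afterwards, where 1.64% of all transcripts were called. SOUL, a heme-binding protein first described in chick pineal gland and retina, was at 17102, 17656 and 18388 CPM at CT4, against 12094, 10658 and 12419 CPM at CT0 (log2 difference 0.60 ± 0.09, adjusted p = 0.00229). GJD2, the gap junction protein connexin 36, was at 526, 538 and 550.4 CPM at CT4, against 384, 277 and 401 CPM at CT0 (log2 difference 0.61 ± 0.10, adjusted p = 0.00481), and SCARB1, a lipoprotein receptor, at 99.8, 117 and 112 CPM at CT4, against 70.6, 62.4 and 72.3 CPM at CT0 (log2 difference 0.68 ± 0.09, adjusted p = 8.93e-04). The SCARB1 call ended with both tissues in one fit (adjusted p = 0.112), and that of SOUL in limma on log2(FPKM + 0.1) without a filter (adjusted p = 0.0564). ACE, the angiotensin-converting enzyme, was at 74.6, 72.2 and 61.2 CPM at CT4, against 149, 115 and 175 CPM at CT0 (log2 difference -1.08 ± 0.16, adjusted p = 0.00291), and UNC5D, a netrin receptor, at 41.2, 44.9 and 37.2 CPM at CT4, against 82.9, 74.7 and 87.9 CPM at CT0 (log2 difference -0.99 ± 0.12, adjusted p = 6.17e-04). In all 6 genes the CT4 and CT0 libraries did not overlap. In the fit of only the 6 CT4 and CT0 libraries the calls of SOUL, GJD2 and ACE ended (adjusted p = 0.0553, 0.173 and 0.058). Those of DIO2, SCARB1 and UNC5D stayed.

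One ARVCF transcript was at 271.4 estimated counts over the 3 CT4 libraries (107.7, 129.6 and 34.1) and at 0.0661 over the 3 CT0 libraries. This is at least 91.2-fold higher against a floor of 3 counts over the group. That floor covers counting error only, and not the sharing out of counts among a gene's transcripts. The ARVCF counts summed per gene differed by -0.02 on the log2 scale (adjusted p = 0.909).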
